A study of Homo sapiens with 2 samples.

Results

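The genes studied here are 8 genes that drive or accompany the passage from G1 into S phase: the cyclins CCNE1, CCNE2, CCNA2 and CCND1, the kinase CDK2, the phosphatase CDC25A, the ubiquitin ligase subunit SKP2 and the transcription factor MYC. They were chosen by symbol, with earlier results of these data known, and each was given 1 hg19 transcription start site. A gene counted as occupied when an E2F1 peak overlapped the stretch from 2 kb before to 2 kb after that site. All 8 of 8 genes met this criterion, through 12 of the 28734 peaks in the list. The values come from 1 chromatin immunoprecipitation sequencing (ChIP-seq) library made with a pair of E2F1 antibodies from LNCaP-abl cells, an androgen-independent prostate cancer line. The cells were at passages 61 to 64, were kept in phenol-red-free RPMI with antibiotics and 10% charcoal-stripped serum, and spent 3 days in androgen-depleted medium before harvest. An input library of the same cells, made without antibody, belongs to the series, but its signal was not analysed here. There is no replicate, so no difference between genes has an error and no test was made. Read depth is unknown, because the list holds positions and scores only.

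E2F1 is a transcription factor that the retinoblastoma protein RB holds inactive in G1. Cyclin D1, the product of CCND1, activates CDK4 and CDK6, which phosphorylate RB and release E2F. The E-type cyclins bind and activate CDK2 at the entry into S phase, and cyclin A2 does so during S phase. CDC25A removes inhibitory phosphates from CDK2, and SKP2 marks the CDK inhibitor p27 for destruction. MYC is a transcription factor that promotes growth and cell cycle entry. CCNE1, CCNA2, CDC25A and other genes of S phase entry are textbook targets of E2F.

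Every one of the 8 start sites lay inside a peak, so the occupied stretch included the start of transcription itself. Of the bases between the outermost peaks of each nuclear chromosome, 3.93% had a peak within 2 kb and 0.488% lay inside a peak. In the 1 Mb bins that hold the genes, the share of bases with a peak within 2 kb ran from 2.77% around CCND1 to 15.9% around CDK2, with 8.03% around CCNE1, 5.62% around CCNE2, 2.81% around CCNA2, 10.8% around CDC25A, 3.24% around SKP2 and 7.49% around MYC. Start sites are not typical bases, and the share of all start sites with a peak was not analysed here, since no hg19 annotation was used. The count of 8 of 8 can therefore be set against the genome as a whole but not against other promoters.

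**Figure D1:**
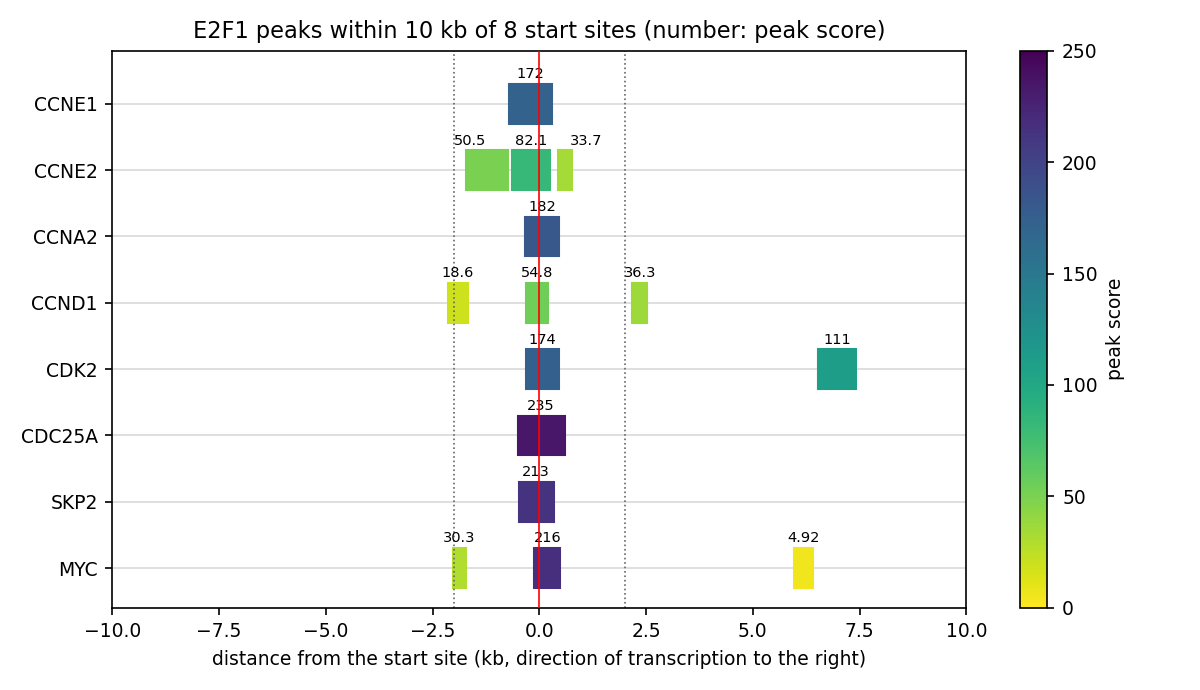
Peaks within 10 kb of each start site, drawn to scale along the direction of transcription (x axis, kb), 1 gene per row, with colour and number giving the peak score. The red line is the start site and the dotted lines are 2 kb on either side. All 8 start sites lie inside a peak, and CCNE2, CCND1 and MYC have further peaks within 2 kb.

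The scores of the start-site peaks were high for 6 of the genes and moderate for CCNE2 and CCND1. The score is the authors' value for each peak and has no stated scale, so each is also given as a percentile, the share of all 28734 peaks with the same or a lower score. Over the 8 highest-scoring peaks, 1 per gene, the median score was 178 and the median percentile 97.2, with scores from 54.8 to 235. Over all peaks the median score was 23.5, with quartiles of 10.1 and 60.7 and a range of 2.41 to 333. A score in the top 10% of the list, at least 110, was reached by 6 of the 8 genes, where 10.0% of all peaks reach it by construction. The top 50% held all 8. These ranks are among all peaks wherever they lie, while each gene stands by its highest peak within 2 kb. Peaks at other start sites were not ranked apart, so the scores were not set against those of other promoters.

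**Figure D2:**
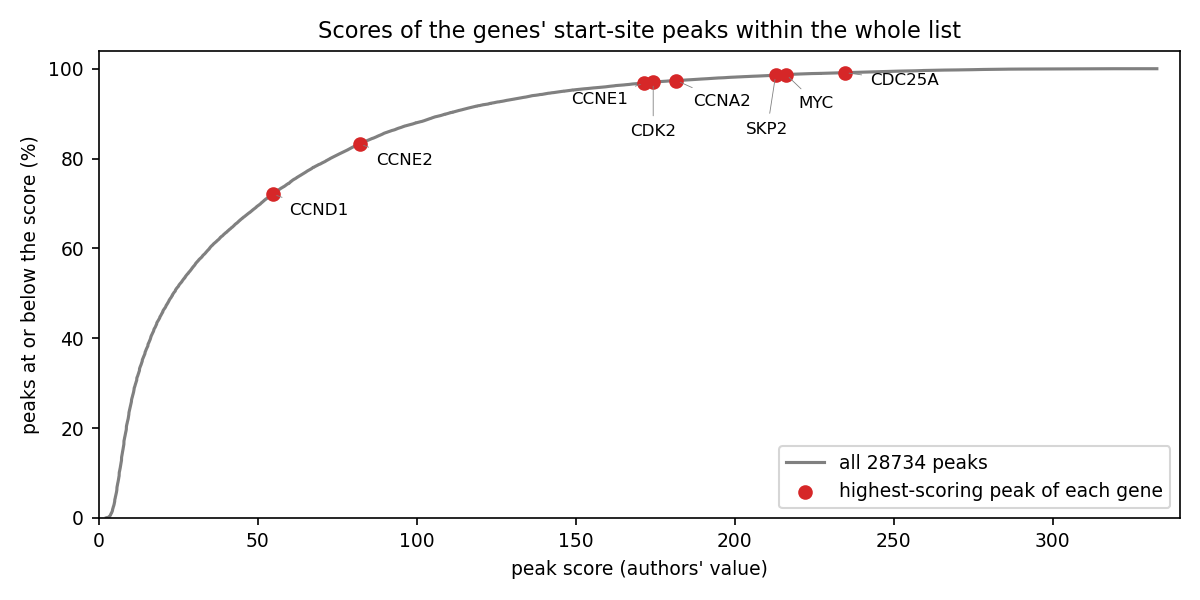
Share of peaks at or below each score (y axis, %) against the score (x axis), for all 28734 peaks as a grey line, with the highest-scoring peak of each gene as a red point on it. CCNE1, CDK2, CCNA2, SKP2, MYC and CDC25A sit together at percentiles of 96.8 to 99.1, while CCND1 and CCNE2 lie apart at 72.1 and 83.3.

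The E-type cyclins, partners of the same kinase, differed in both score and layout. CCNE1 had 1 peak, at chr19:30302194-30303204 (hg19, 1-based, as are all peak coordinates here), with a score of 172 and a percentile of 96.8. It reached 707 bp upstream and 303 bp downstream of the start site, and its nearest neighbours were 50768 bp upstream and 22672 bp downstream. CCNE2 instead had 3 peaks in a stretch of 2474 bp, the most of any of the 8 genes within 2 kb. The peak over the CCNE2 start site, at chr8:95907225-95908106, scored 82.1 (percentile 83.3). A wider but lower peak lay upstream, from -1718 to -734 bp relative to the start site, with a score of 50.5 (percentile 69.7). The third was inside the gene, 439 to 755 bp after the start site, with a score of 33.7 (percentile 59.1). Gaps of only 101 and 189 bp separated the 3 peaks, and together they covered 54.6% of the 4 kb around the start site, against 25.3% for the single CCNE1 peak. Whether they are separate sites or 1 enriched stretch was not tested, as the list has no summits. In RefSeq, the protein-coding gene NDUFAF6 overlaps CCNE2 and spans its start site, so the CCNE2 peaks cannot be assigned to 1 of the genes.

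By score, CCNA2 and CCND1 stood at opposite ends among the cyclins. The CCNA2 peak, at chr4:122744620-122745421, had a score of 182 (percentile 97.4), the highest of the 4 cyclins. It was a lone peak, 333 bp upstream to 468 bp downstream of the start site, with 45828 bp to the next peak upstream and 21710 bp to the next one downstream. CCND1, whose product acts before E2F release, had the lowest score of the 8 genes. Among peaks of the same chromosome and a width within 10% of its own, however, CCND1 was at percentile 64.8 and CCNE2 was lowest, at 53.8. In that ranking CCNA2, at 89.39, was below CCNE1, at 90.65, so neither end among the cyclins was kept. The CCND1 start-site peak, at chr11:69455567-69456067, scored 54.8 (percentile 72.1, exact 95% interval 71.6 to 72.6, counting error only). A weaker CCND1 peak, with a score of 18.6 (percentile 43.8), lay upstream with its near edge 1670 bp from the start site, and another, scoring 36.3 (percentile 61.1), began 2174 bp downstream, just outside the 2 kb limit.

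CDK2 and its activator CDC25A both carried strong start-site peaks. At CDK2, the peak chr12:56360247-56361022 scored 174 (percentile 97.04), close to the value of 172 at CCNE1. It extended from 306 bp upstream to 469 bp downstream. Among peaks of its chromosome and like width it was lower, at percentile 82.98. A second peak near CDK2 started 6522 bp and ended 7421 bp after the start site, scored 111 and was also in the top 10% of the list (percentile 90.3). The next protein-coding gene in that direction in RefSeq is RAB5B, on the same strand, and on the upstream side it is PMEL. Where these genes begin in hg19 was not analysed here, so whether either peak belongs to CDK2 alone was not tested. CDC25A had the highest score of the 8 genes, 235 at chr3:48229210-48230308, with only 251 of 28734 peaks above it (percentile 99.1, exact 95% interval 99.01 to 99.2, counting error only). Among peaks of its chromosome and like width it was at percentile 98.6, below MYC at 99.01. It was also the widest of the 8 start-site peaks at 1099 bp, from 507 bp upstream to 591 bp downstream.

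SKP2 and MYC were close to each other in score and differed in shape. The SKP2 peak, at chr5:36151660-36152487, scored 213 (percentile 98.5) and spanned 485 bp upstream to 342 bp downstream of the start site. LMBRD2, the neighbour of SKP2 upstream in RefSeq, is on the opposite strand and faces away from it, so the peak cannot be assigned to SKP2 alone. The MYC peak, at chr8:128748196-128748811, scored 216 (percentile 98.7). It reached 119 bp upstream and 496 bp downstream of the start site used for MYC. Its upstream reach from that site was the shortest of the 8 genes. Other MYC start sites were not analysed, so this position of the peak holds for that site only. A smaller MYC peak, with a score of 30.3 (percentile 56.4), had its near edge 1720 bp upstream, and a very weak one began 5970 bp downstream with a score of 4.92, at percentile 3.2.

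Position around the start site had no common side. The middle of the highest-scoring peak was upstream in 4 genes and downstream in the other 4, with a median of -7 bp and a range from -202 bp at CCNE1 to 188.5 bp at MYC, where negative values are upstream. Some middles lay close to the start site, such as 42 bp at CDC25A and -56 bp at CCND1. They are middles of whole peaks without summits, measured from 1 start site per gene, so another start site could change the side. The upstream reach ran from 119 to 707 bp and the downstream reach from 194 to 591 bp. In 7 of 8 genes, all but MYC, the peak covered the whole of the 250 bp before the start site used. Another start site could change these reaches too.

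Promoter sequences from RefSeq (build GRCh38.p14, 250 bases before to 50 bases after each gene's start) were at hand for 4 of the 8 genes, CCNE1, CCNA2, CDC25A and SKP2. They are shown because all 4 genes had a start-site peak in the top 10% of the list, and their promoters can be read for the letters E2F proteins are known to prefer. The bases before the start are printed in the gene's direction, from chr19:29811741-29811990 (plus strand), chr4:121823884-121824133 (minus), chr3:48188418-48188667 (minus) and chr5:36151888-36152110 (plus) of GRCh38.p14. For SKP2 the outermost 27 bases, which belong to LMBRD2, were left out. Capitals mark an E2F word, with or without its first T and on either strand, or a GC box, which is GGGCGG or its reverse complement.
CCNE1: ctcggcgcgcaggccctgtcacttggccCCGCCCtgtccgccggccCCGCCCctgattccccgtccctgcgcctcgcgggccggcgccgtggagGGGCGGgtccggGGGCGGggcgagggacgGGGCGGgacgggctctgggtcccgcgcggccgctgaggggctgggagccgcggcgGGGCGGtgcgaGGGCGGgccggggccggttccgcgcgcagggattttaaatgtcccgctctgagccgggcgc
CCNA2: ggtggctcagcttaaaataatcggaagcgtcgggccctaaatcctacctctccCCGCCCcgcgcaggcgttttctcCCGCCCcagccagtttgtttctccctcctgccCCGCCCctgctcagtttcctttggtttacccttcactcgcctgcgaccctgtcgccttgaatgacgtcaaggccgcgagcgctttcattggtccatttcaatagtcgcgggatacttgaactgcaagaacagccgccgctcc
CDC25A: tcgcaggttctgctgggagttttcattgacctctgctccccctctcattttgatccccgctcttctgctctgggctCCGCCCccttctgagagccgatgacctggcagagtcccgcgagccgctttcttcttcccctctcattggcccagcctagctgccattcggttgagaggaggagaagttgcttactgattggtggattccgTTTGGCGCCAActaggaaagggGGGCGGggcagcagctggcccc
SKP2: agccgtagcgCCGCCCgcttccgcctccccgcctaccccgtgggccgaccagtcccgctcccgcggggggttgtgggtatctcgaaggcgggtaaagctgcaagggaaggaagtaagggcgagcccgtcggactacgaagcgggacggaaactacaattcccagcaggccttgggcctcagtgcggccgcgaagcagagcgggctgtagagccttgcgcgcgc

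An E2F word was one of 4 forms of the E2F consensus, TTTCCCGC or TTTCGCGC or TTTGCCGC or TTTGGCGC, read on both strands. Among the 4 promoters, 1 held such a word, that of CDC25A, the gene with the highest score. There TTTGGCGC stood at bases -44 to -37, counted with -1 as the last base before the start. The word runs on into a palindrome, so the word without its leading T also read on the other strand at -40 to -34. Of 35093 RefSeq promoters of the same length, 3.32% held an E2F word, and of 22180 promoters of protein-coding genes 4.1% did. Without the first T, the words were in the same 1 of 4 promoters and in 13.0% of all promoters (16.1% of those of protein-coding genes). CCNE1, CCNA2 and SKP2 thus had peaks at percentiles of 96.8, 97.4 and 98.5 with none of these letters in the window. That says nothing of other or weaker forms of the motif. These peaks were 1011, 802 and 828 bp wide and the window holds 300 bases, so most of each peak was not searched.

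Other motifs of cell cycle promoters were searched in the same windows on both strands. The GC box GGGCGG, the letters bound by SP1, was in all 4 promoters and in 44.9% of all promoters (56.3% of those of protein-coding genes). CCNE1 held 7 of them, CCNA2 held 3, CDC25A held 2 and SKP2 held 1. The CCAAT box, bound by NF-Y, was in the promoters of CCNA2 (at -56 to -52) and CDC25A (at -110 to -106 and -58 to -54), all on the other strand, and in 34.6% of all promoters. Neither the E-box CACGTG, the site of MYC, nor the letters TTTGAA of the cell cycle homology region (CHR) were in any of the 4. Among all promoters, 7.26% and 15.2% held them (8.34% and 12.4% of those of protein-coding genes). Only these exact letters were searched, which says nothing of variant forms of either motif. In the CDC25A promoter the nearer CCAAT box, the E2F word and a GC box at -22 to -17 followed each other toward the start. The share of G and C was 81.0% at CCNE1, 61.0% at CCNA2 and at CDC25A, and 67.3% at SKP2, against a median of 58.7% over all promoters. CpG pairs were at 0.973, 0.967, 0.574 and 0.858 times the number expected from base composition at CCNE1, CCNA2, CDC25A and SKP2, against a median of 0.579.

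A wider list of genes that act beside the 8, fixed with earlier results of these data known, was read only for promoter sequence, since their hg19 start sites were not used here. Sequences were at hand for 17 of these 18 genes. An E2F word was in 2 of 17 (3.32% of all promoters), CDK1 (the mitotic partner of A- and B-type cyclins) and MYCN (a relative of MYC). The words without the first T were in 6 of 17 (13.0% of all promoters), adding CDC25B, CDC25C, CUL1 and SKP1. A GC box was in 16 of 17 (44.9% of all promoters), a CCAAT box in 9 (34.6%), an E-box in 3 (7.26%) and the CHR letters in 6 (15.2%). Of promoters of protein-coding genes, 4.1% held an E2F word, 16.1% a word without the first T and 56.3% a GC box. A CCAAT box was in 34.7% of them, an E-box in 8.34% and the CHR letters in 12.4%. No test was made of the counts among the 17 genes.

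Width varied among the genes apart from score. The 8 highest-scoring peaks had a median width of 815 bp and ran from 501 bp at CCND1 to 1099 bp at CDC25A, against a median of 418 bp over all peaks. Higher-scoring peaks are wider in this list, so each width was also ranked among peaks whose score percentile was within 5 points. In that ranking CDC25A was at percentile 89.8, CCNE1 at 83.6, CCNE2 at 72.2, SKP2 at 59.03, CCNA2 at 54.6 and CDK2 at 50.7. CCND1 and MYC were narrow for their scores, at percentiles 27.6 and 17.5. The MYC start-site peak was 616 bp wide, where peaks of like score had a median of 778 bp. Among the 4 weaker peaks within 2 kb, with scores of 18.6 to 50.5, the upstream CCNE2 peak (985 bp, percentile 86.04) and the upstream CCND1 peak (470 bp, percentile 75.05) were wide for their scores, and the upstream MYC peak (305 bp) and the downstream CCNE2 peak (317 bp) were both narrow, each at percentile 3.48.

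**Figure D3:**
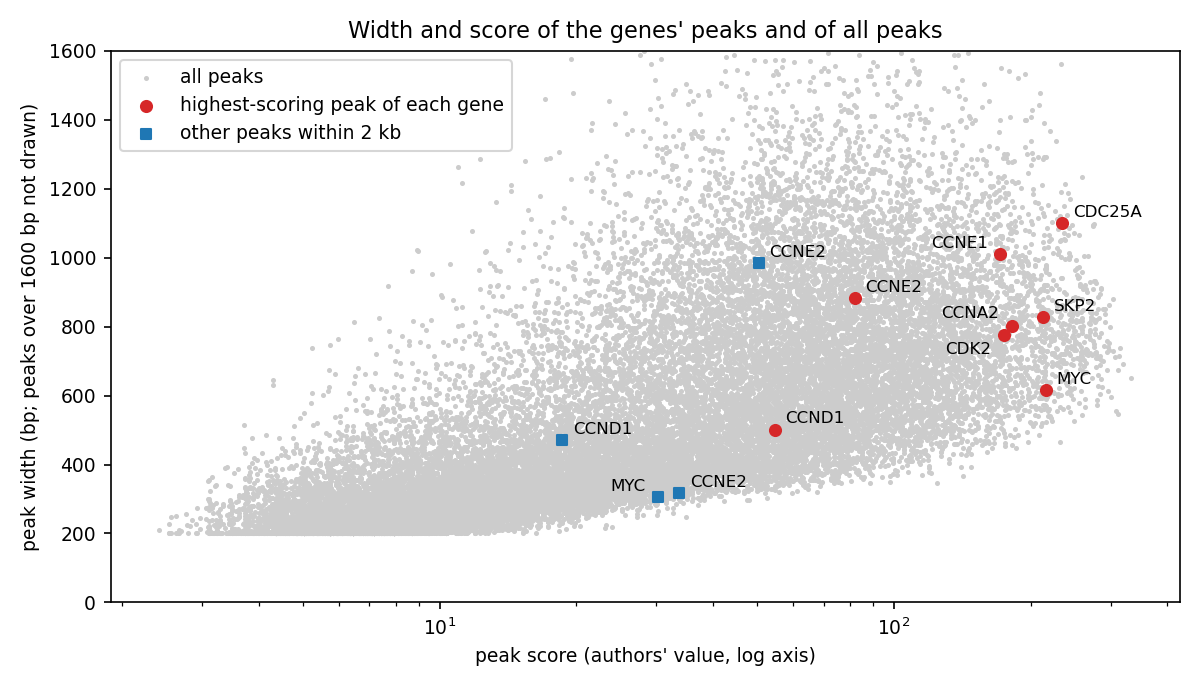
Width (y axis, bp) against score (x axis, log scale) for all peaks in grey, the highest-scoring peak of each gene as red circles and the other 4 peaks within 2 kb as blue squares. CDC25A and CCNE1 are at the wide side of the peaks of their score, and MYC, at 616 bp, is at the narrow side.

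The surroundings of the genes were unlike each other. In 4 of the 8 genes, CCNE1, CCNA2, CDC25A and SKP2, the start-site peak had no other peak within 10 kb, which also held for 60.5% of nuclear peaks. The start-site peak was the highest within 500 kb for CDC25A, SKP2 and MYC, or 3 of 8 genes. Of nuclear peaks, 8.61% were the highest within 500 kb of their own middle. That share is over peaks of every score, while these genes had the 3 highest scores of the 8. Peaks of like score were not compared. Among the 8 genes, the SKP2 peak was farthest from its nearest neighbour, 212640 bp from the next peak upstream and 89260 bp from the next downstream, and the 7 peaks within 500 kb of it had a median score of 7.17, though one of them, 90.1 kb downstream, scored 192 against 213 at SKP2 itself. CDK2 lay in the fullest region, with 35 peaks within 500 kb and a median score of 54.6, and 5 of them scored above its own peak. For CCNE2, 6 of the 22 peaks from 2 to 500 kb away scored higher than its start-site peak, up to 262 at 420.1 kb downstream.

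CCND1 was the gene whose peaks were most gathered. Of 8 peaks within 500 kb, 7 were within 50 kb of its start site. Upstream of the peak at 1670 bp the next one was 565393 bp away from the start site. Only 2 peaks within 500 kb scored above the CCND1 start-site peak of 54.8, and both were downstream, 66.1 at 13.9 kb and 64.6 at 34.3 kb. The largest values near CCNA2 and CCNE1 were also not their own. The CCNA2 peak, at 182, was below a peak of 246 that lay 22.5 kb downstream, while the CCNE1 peak, at 172, was below a peak of 182.5 at -126.4 kb, on its upstream side.

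**Figure D4:**
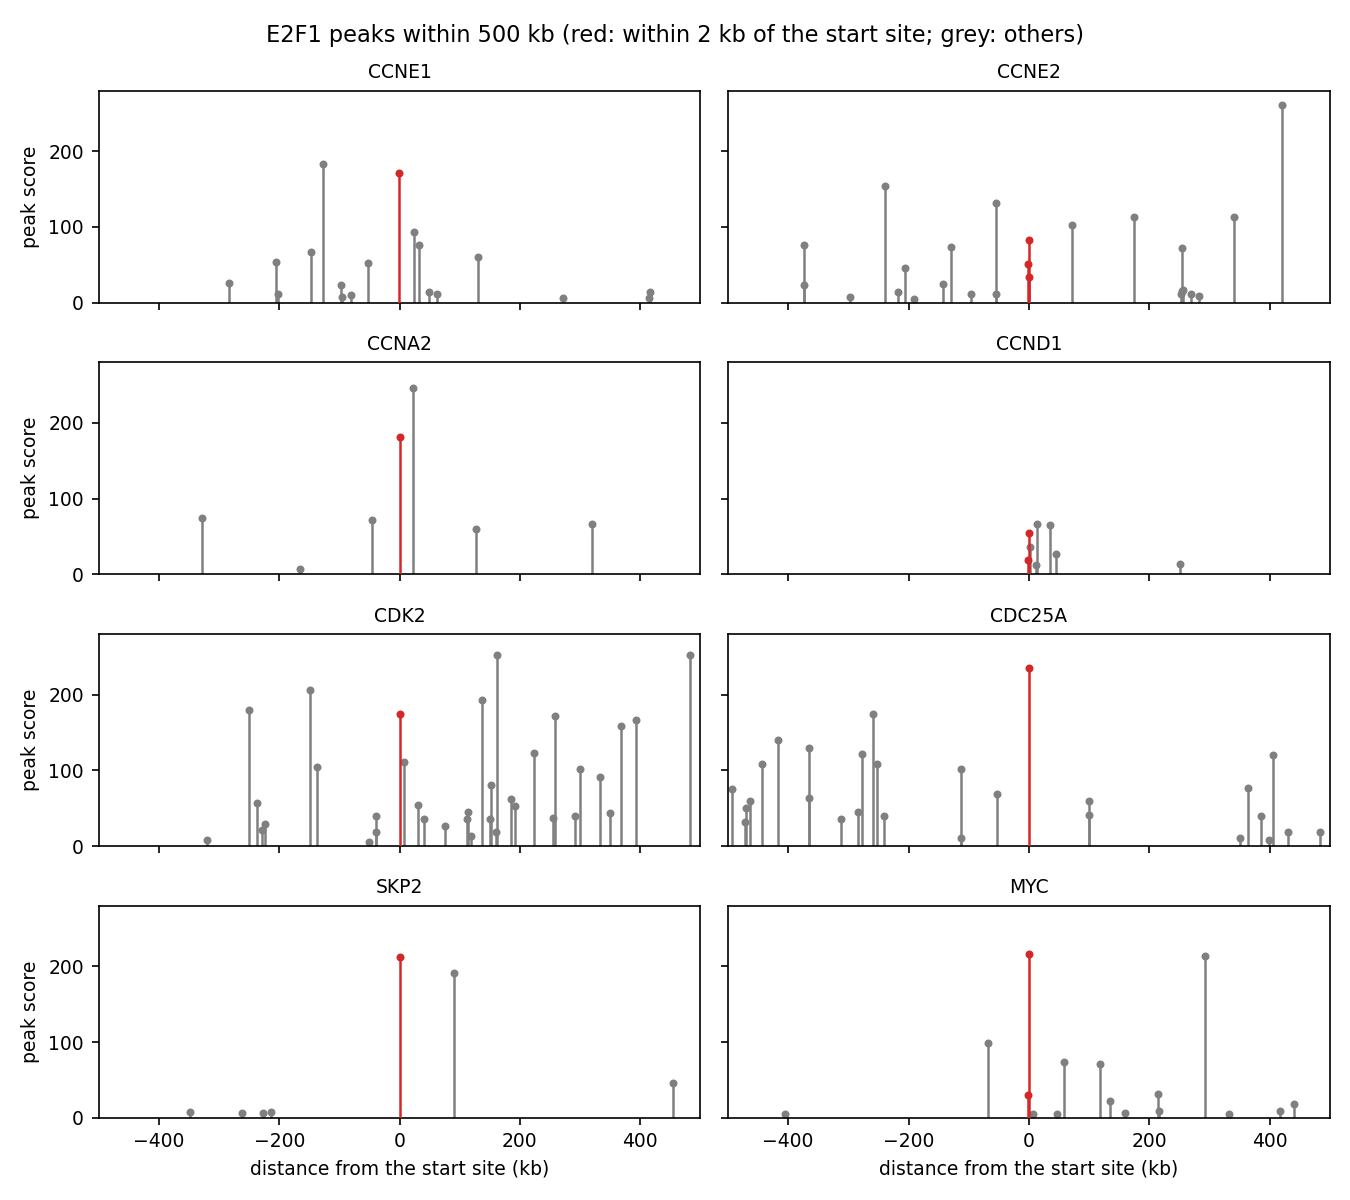
Peak score (y axis) against distance from the start site along the direction of transcription (x axis, kb) for peaks within 500 kb of each gene, with peaks within 2 kb in red and others in grey. CDC25A, SKP2 and MYC have the highest peak of their panel, SKP2 at 213 has a peak of 192 at 90.1 kb, and CCND1 has no upstream peak but the one within 2 kb of its start site.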

How the data were processed

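The library was made from sonicated nuclei by immunoprecipitation with E2F1 antibodies, with a ThruPLEX-FD kit and an Illumina NextSeq instrument, per the labels' protocols. CASAVA 1.6.0, Bowtie and MACS2 2.0.9 are named with build hg19, per the submitters' processing notes. Settings, the peak threshold and any use of the input were not given in the sources used here. Each line of the deposited list holds a peak's position, name and the authors' score, and the score was used only to rank peaks within the list.

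Start sites came from the definition of the gene set. Starts were read as 0-based and are printed 1-based, and an overlap of 1 bp sufficed. Where several peaks met the window, the highest-scoring stood for the gene. All 8 genes are reported with or without a peak, together with peaks within 10 kb and the next on each side. Nuclear shares used the 28725 peaks on chromosomes 1 to 22, X and Y. Percentile intervals are exact (Clopper-Pearson, 95%). Promoter letters were read from 35116 RefSeq entries, of which 35093 were distinct. RefSeq (GRCh38.p14) coordinates were not set directly against hg19 peaks. Gene order, strand and overlap within RefSeq were used to name nearby genes and to say where a peak could not be assigned to 1 gene. Genes, list and rules were chosen with earlier results of these data known. Functions were tested on simulated data. Python 3.11.15, pandas 2.3.3, numpy 2.4.6, scipy 1.17.1 and matplotlib 3.10.9 were used. Alternatives were other windows, score thresholds, overlap, ranking sets and word rules.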

Additional observations from a re-analysis of the deposited data

How the results depend on the processing

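The count of 8 of 8 genes with a peak within 2 kb was also 8 with windows of 500 bp, 1 kb, 5 kb and 10 kb, with the top 50% of peaks, with at least 50% of the peak inside the window and for start sites inside a peak, the last an alternative added after seeing the data. Because every start site lay inside a peak, no window around it could give fewer than 8, so the other windows tested nothing further. With the top 10% of peaks it was 6, without CCNE2 and CCND1. The median percentile of 97.2 was 97.1 when each peak was ranked on its own chromosome and did not move with the window or with the nearest peak in place of the highest. The nearest peak could not differ here, because the highest peak of each gene covered its start site. Ranked among peaks of the same chromosome and like width, the genes' percentiles ran from 53.8 to 99.01. Every gene but MYC was lower in that ranking than among all peaks, with CDK2 at 82.98, CCNA2 at 89.39, CCNE1 at 90.65 and SKP2 at 95.59. The median was not taken for that ranking. The lowest was then CCNE2 (83.3 among all peaks) and not CCND1, which was at 64.8, and the highest was MYC at 99.01 and not CDC25A, which was at 98.6. The share of bases with a peak within 2 kb, 3.93%, was 5.08% without peak-free stretches over 1 Mb, 6.55% as the median of the genes' 1 Mb bins, 2.16% for the top 50% and 0.459% for the top 10% of peaks, 2.25% for 1 kb and 8.63% for 5 kb, as follows from fewer peaks or another window. An E2F word was in 1 of 4 promoters under every rule tried. No paired analysis was possible because there is 1 sample with peaks, and no replicate could be left out. Without read counts, the limits set by depth are unknown.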

Other observations

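Some high-scoring peaks lay at a distance from the genes, and they are named here after their values were seen. A peak of 213 lay 292.1 kb downstream of the MYC start site, where the MYC peak scored 216, with lower-scoring peaks between them. The peak 90.1 kb downstream of SKP2 was at percentile 97.8. In RefSeq the gene NADK2 overlaps the far end of SKP2, and EXOSC9 overlaps the far end of CCNA2. Which gene any of these distant peaks belongs to was not tested.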
